A study of Mus musculus with 10 samples.

Results

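Lymphomas of mice often depend on a small group of genes first recognised because retroviruses or translocations switch them on: the MYC family (Myc, Mycn), the PIM kinases (Pim1, Pim2), the D-type cyclins (Ccnd1, Ccnd2, Ccnd3) and the genes Myb, Notch1 and Gfi1. The 10 genes were taken by name, and all 22 non-control probes that the array files list under these names were used, of 41174 non-control probes in all. All 10 genes were among the 17775 genes and unnamed transcripts that could be tested. Messenger RNA had been profiled on single-colour 60-base oligonucleotide arrays in lymphomas that arose spontaneously in mice of a pathogen-free colony, with 1 array per mouse; RNA came from frozen tumour left after a piece had gone to histology. The 2 groups were 5 tumours of mice heterozygous for a C/EBPb LIP allele (+/L; mice 20, 23, 517, 688 and 866) and 5 tumours of wild-type mice (+/+; mice 11, 17, 19, 40 and 101). LIP is the short isoform of the transcription factor C/EBPβ and is translated from the same mRNA as the longer forms, so an mRNA level gives no check of the genotype labels. The +/L mice were 11 to 21 months old and the +/+ mice 20 to 29 months, so age and genotype overlap only in part. The labels name no strain and no agent given to either group.

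MYC and MYCN are transcription factors that pair with MAX and drive ribosome production and growth. PIM kinases are short-lived, constitutively active serine/threonine kinases induced by cytokine signals through STAT5, and they cooperate with MYC in mouse lymphoma. D-type cyclins bind CDK4 and CDK6, and the complexes phosphorylate RB and open the way into S phase. MYB is a transcription factor of immature blood cells, NOTCH1 is a receptor that directs T-cell fate and is activated in many T-cell leukaemias, and GFI1 is a transcriptional repressor of early lymphoid and myeloid cells. In retroviral screens these genes are recurrent insertion sites, and a tumour with such an insertion can express the gene next to it at a high level. The question here was whether any of them stood high in 1 tumour, or differed between +/L and +/+ tumours.

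Levels are given on a log2 scale on which 0 is the 75th percentile of the processed signals of an array. A probe's brightness depends on its sequence, and levels are therefore compared between tumours for 1 probe and never between probes. That percentile averaged 434 ± 129 for the +/L and 288 ± 61.1 for the +/+ arrays (SD, n = 5 each). Between 48.0% and 66.7% of an array's spots rose clearly over background, called well above background here as in the files, and 0 non-control spots were saturated. The tissue label was set against lineage markers: all 8 B-cell and all 8 T-cell markers were measurable, while the recombination genes Rag1 and Rag2 and the surrogate light chain gene Igll1 were too dim to be tested. The other 2 markers of immature lymphoid cells were measured, Dntt on all arrays and Vpreb1 on 4 of 5 +/L and 5 of 5 +/+ arrays. The tumour of +/L mouse 20 stood apart from the others. Its score on 5 epithelial and mesothelial markers (the mean of the members' values relative to each gene's mean over the tumours) was 4.66, against -1.44 to 0.86 elsewhere, and the keratin gene Krt18 read 6.59 there against -2.59 to -0.42. Its T-cell score was -1.71, its B-cell score -0.74 and its plasma-cell score 1.88, while the B-cell score of +/L mouse 866 was -1.89. Adipocyte markers were higher in +/L for 5 of 5 genes, with scores of -2.36 to 4.34 in +/L and -3.12 to 2.19 in +/+ tumours; the part of such cells in the results was not tested. The arrays of +/L mouse 20 and +/+ mouse 11, both labelled male, carried sex-linked transcripts of females, so 2 arrays did not match that label. Since whole tumours were profiled, fewer cells of a type and less RNA per cell cannot be told apart.

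Between 1 and 4 probes read each gene. The sequences of 5 of them are shown because the results on the MYC family, Myb and Pim1 turn on them. The probes of Myc and Mycn printed here lie upstream of the other probe or probes of those genes, at chr15:61820925-61820984 on the plus strand and chr12:12944312-12944371 on the minus strand (mm9). The capitals mark the longest run of bases that these probes share.

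Myc probe A_52_P278549: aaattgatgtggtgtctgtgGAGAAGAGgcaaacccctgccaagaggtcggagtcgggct
Mycn probe A_51_P497332: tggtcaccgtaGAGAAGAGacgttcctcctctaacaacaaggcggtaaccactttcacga

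The shared run is 8 bases long, and in the best ungapped alignment 27 of 51 bases of these probes match. The Myb probe below, at chr10:20872381-20872440 on the minus strand, lies upstream of the other Myb probes. The Pim1 probe that stands for the gene lies at chr17:29630740-29630799 on the plus strand. A further probe under the name Pim1, at chr17:29628627-29628686, is listed on the minus strand and under another transcript record (AK047301), so it runs along the strand opposite to the gene, and its reverse complement is given as well.

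Myb probe A_52_P444839: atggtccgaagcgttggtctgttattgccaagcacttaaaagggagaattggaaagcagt
Pim1 probe A_52_P530291: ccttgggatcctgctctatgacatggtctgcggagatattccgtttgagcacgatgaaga
Pim1 probe A_52_P535619: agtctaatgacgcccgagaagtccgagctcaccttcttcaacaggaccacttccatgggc
Pim1 probe A_52_P535619, reverse complement: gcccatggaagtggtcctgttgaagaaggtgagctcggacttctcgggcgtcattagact

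None of the 10 genes differed between the genotypes beyond the spread between tumours. In limma, fitted across all genes, 0 of 10 had an adjusted p under 0.05, where the background over all 17775 genes was 0%. At an unadjusted p under 0.05 in limma it was again 0 of 10, against 8.58% of all genes (3.14% higher and 5.44% lower in +/L). The 5 values of one group overlapped those of the other for all 22 probes, where 1.80% of all genes had groups that do not overlap. Lower means in +/L were found for 7 of the 10 genes and higher ones for 3, where over all genes 51.9% read lower and 48.1% higher. The median log2 difference (+/L minus +/+) over the 10 genes was -0.17, against -0.02 over all genes. The smallest limma adjusted p among them was 0.586, for Mycn. Small changes are hard to call with 5 tumours a group: in simulated data of this design, with 17775 genes, the fit found 20.4%, 58%, 82% and 91.6% of the genes given a log2 change of 1, 2, 3 and 4.

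**Figure D1:**
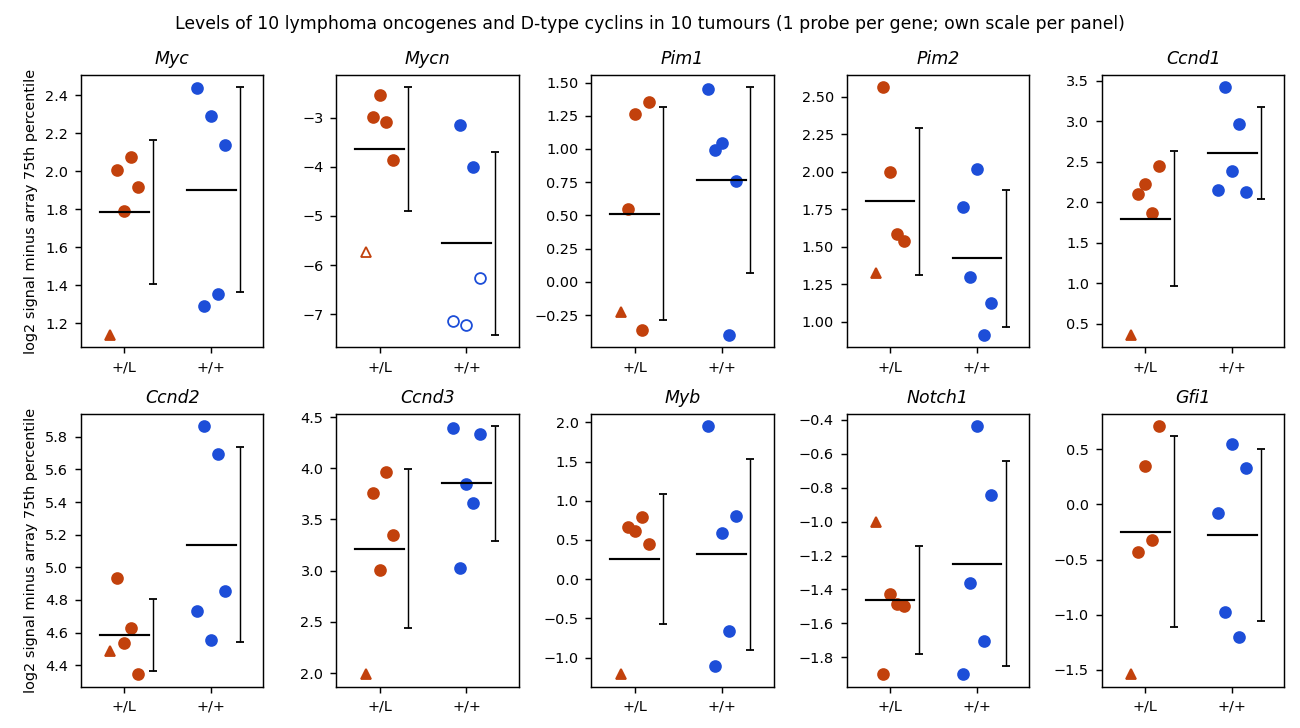
Level of each gene (log2 signal relative to the 75th percentile of the array, y axis with its own scale in each panel) in 5 +/L tumours (orange) and 5 +/+ tumours (blue), for the probe that stands for the gene. Triangles are +/L mouse 20, open symbols are spots not well above background, horizontal lines are group means and bars are ± 1 SD; the groups overlap in every panel, and +/L mouse 20 is the lowest point for Myc, Ccnd1, Ccnd3, Myb and Gfi1.

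Myc was read by the probe A_51_P102096 (chromosome 15, 61821516 to 61821576 in mm9), which is spotted 10 times on each array. It stood at 1.14, 2.01, 1.79, 2.07 and 1.92 in +/L mice 20, 23, 517, 688 and 866. In +/+ mice 11, 17, 19, 40 and 101 it read 2.44, 1.29, 2.29, 1.35 and 2.14. The lowest value belonged to a +/L tumour and the next lowest ones to +/+ mice 17 and 40, with the +/L values otherwise inside the +/+ range. The difference was -0.12 ± 0.30 (SE; limma adjusted p = 0.931, exact two-sided permutation p = 0.706), and without +/L mouse 20 it was 0.04. Within the 3 slides it was 0.28, -0.54 and -0.30. Repeated spots of this probe scattered by a median SD of 0.06 within an array, and its values over the 10 tumours, 1 array each, had an SD of 0.44. That SD lay at the 36.2 percentile of all genes. The middle probe, A_52_P108346, followed it, with a difference of -0.08.

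Mycn, which takes the place of Myc in some immature cells, was dim, and its level could be read in part of the tumours only. The probe that stands for it, A_52_P536494 (chromosome 12, 12943193 to 12943252 in mm9), passed that mark in 4 of 5 +/L tumours and in 2 of 5 +/+ tumours. The +/L values were -5.74 in mouse 20, where the spot was not well above background, and -2.98, -2.54, -3.08 and -3.87 in mice 23, 517, 688 and 866. In +/+ tumours it was measured at -3.15 in mouse 17 and -4.01 in mouse 40, and the spots of mice 11, 19 and 101, at -7.15, -7.22 and -6.26, were not well above background. The well-measured values of the genotypes overlap, and the groups differ in how many tumours gave one. The group means were -3.64 ± 1.27 and -5.56 ± 1.87 (SD, n = 5 each), a difference of 1.92 ± 0.90 (SE; limma adjusted p = 0.586, exact permutation p = 0.071). With normexp background correction together with quantile normalization it was 0.30, and by the authors' deposited values 0.19. Within the slides it was -0.83, 4.39 and 2.87, each with spots not well above background in it, so these sizes are not measured values. With age as a covariate the difference was 0.97.
The upstream Mycn probe, A_51_P497332, was well above background on 1 of 5 arrays of each group, and its highest value was -2.99 in +/L mouse 20.

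Pim1 (A_52_P530291) read -0.23, 0.55, 1.26, -0.36 and 1.35 in +/L mice 20, 23, 517, 688 and 866. The +/+ values were 1.45, 0.99, 1.05, -0.40 and 0.76 in mice 11, 17, 19, 40 and 101. The tumours of +/L mice 20 and 688 and +/+ mouse 40 lay below 0, and the lowest and the highest value both came from the +/+ group. The difference was -0.25 ± 0.44 (SE; limma adjusted p = 0.901). With single tumours left out it ranged from -0.55, without +/+ mouse 40, to -0.03, without +/L mouse 688, and it was -0.07 without +/L mouse 20. Within the slides it was -0.59, -0.54 and 0.45. The probe on the opposite strand, A_52_P535619, differed by 0.08, and +/L mouse 20, among the low tumours of the Pim1 probe, had its highest value, -2.57.

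Pim2, whose kinase overlaps with that of Pim1 in function, was read by 3 probes that ranked the extreme tumours alike. On A_52_P627631 the +/L tumours of mice 20, 23, 517, 688 and 866 read 1.32, 2.56, 2.0, 1.59 and 1.54. The +/+ tumours of mice 11, 17, 19, 40 and 101 read 1.76, 1.29, 2.02, 0.91 and 1.12. All 3 probes were highest in +/L mouse 23 and lowest in +/+ mouse 40; A_51_P458428 overlaps A_52_P627631 in a shared run of 32 bases and is no independent reading. The difference was 0.38 ± 0.30 (SE; limma adjusted p = 0.744), with 0.36 on A_52_P608255 and 0.30 on A_51_P458428. Without +/L mouse 23, the highest tumour, it was 0.19, and without +/L mouse 20 it was 0.50. Within the slides it was 0.35, 0.52 and -0.03. The probes gave differences of like size, which lay within the spread between tumours.

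The 3 D-type cyclins all read lower in +/L than in +/+ tumours, and for none did the difference pass. Ccnd1, the cyclin that lymphocytes use least and that stromal and epithelial cells use most, read 0.36, 2.09, 2.22, 1.86 and 2.45 in +/L mice 20, 23, 517, 688 and 866 (A_51_P262766). In +/+ mice 11, 17, 19, 40 and 101 it read 2.15, 3.42, 2.38, 2.97 and 2.12. The tumour of +/L mouse 20 lay far below all others, those of +/+ mice 17 and 40 lay highest, and the remaining tumours of both groups fell together between 1.86 and 2.45. The means were 1.80 ± 0.83 and 2.61 ± 0.57 (SD, n = 5 each), a difference of -0.81 ± 0.42 (SE; limma adjusted p = 0.629, exact permutation p = 0.119). Without +/L mouse 20 it was -0.45, and with age as a covariate -1.61. Within slide 1, which holds +/L mouse 20 and both of the high +/+ tumours, it was -2.08, and within slides 2 and 3 it was 0.01 and 0.20. The 10 spots of this probe scattered by a median SD of 0.05 within an array, against an SD of 0.80 over tumours.

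Ccnd2, the D-type cyclin induced in lymphocytes by antigen receptors and cytokines, showed the narrowest +/L group. On A_51_P433228 the +/L tumours read 4.49, 4.93, 4.53, 4.63 and 4.34 in mice 20, 23, 517, 688 and 866. The +/+ tumours read 4.73, 5.86, 4.55, 5.69 and 4.86 in mice 11, 17, 19, 40 and 101. The tumours of +/+ mice 17 and 40 were the highest on all 3 Ccnd2 probes, and the other +/+ tumours lay within the +/L range. The difference was -0.55 ± 0.29 (SE; limma adjusted p = 0.629, exact permutation p = 0.087), and the other probes gave -0.60 (A_52_P53906) and -0.22 (A_52_P514391). Within the slides it was -1.22, 0.00 and -0.36, so it was largest on slide 1, where +/+ mice 17 and 40 lie. Without +/L mouse 20 it was -0.53, and without +/+ mouse 17 it was -0.37. All 5 endothelial markers were measured, and the highest endothelial scores of the series were 1.26 in +/+ mouse 17 and 0.74 in +/+ mouse 40, with -0.36 to 0.36 in +/L tumours and -1.24 at the lowest in +/+ tumours. The part of these cells in the Ccnd1 and Ccnd2 values was not tested.

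Ccnd3 (A_51_P238448), the D-type cyclin needed by immature T and B cells, read 1.99, 3.76, 3.01, 3.97 and 3.35 in +/L mice 20, 23, 517, 688 and 866. In +/+ mice 11, 17, 19, 40 and 101 it read 4.39, 3.02, 3.84, 3.66 and 4.34. Its high +/+ tumours were those of mice 11 and 101, not those that were high for Ccnd1 and Ccnd2, and +/+ mouse 17 lay at the bottom of its group. The difference was -0.64 ± 0.40 (SE; limma adjusted p = 0.676, exact permutation p = 0.183), and -0.33 without +/L mouse 20. It was negative within each slide, at -0.37, -1.01 and -0.74. The lower Ccnd3 of +/L mouse 20 stood beside the lowest T-cell score of the series, -1.71, and the part of the cell mixture in it was not tested.

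After Mycn, Myb had the widest spread of the 10 genes, with an SD of 0.99 over the tumours, at the 79.2 percentile of all genes. On A_51_P375543, spotted 10 times, it read -1.21, 0.66, 0.61, 0.79 and 0.45 in +/L mice 20, 23, 517, 688 and 866. In +/+ mice 11, 17, 19, 40 and 101 it read 1.95, -1.10, 0.59, -0.67 and 0.80. A high tumour (+/+ mouse 11), a middle group and 3 low ones (+/L mouse 20, +/+ mice 17 and 40) can be seen, and the genotypes are mixed over them. The difference was -0.06 ± 0.60 (SE; limma adjusted p = 0.984), and it changed sign to 0.31 without +/L mouse 20. Within the slides it was 0.67, -1.32 and -0.25. Repeated spots scattered by a median SD of 0.08. The other downstream probe, A_51_P375538, differed by 0.05 and gave the same high and low tumours, while A_52_P83704, of another transcript record, was well above background on 4 of 5 arrays of each group and differed by -0.21.

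Notch1 (A_51_P508510, spotted 10 times) read -1.01, -1.90, -1.43, -1.49 and -1.50 in +/L mice 20, 23, 517, 688 and 866. The +/+ tumours of mice 11, 17, 19, 40 and 101 read -1.90, -1.36, -0.44, -1.70 and -0.84. The highest tumour on both Notch1 probes was that of +/+ mouse 19, which also had the highest T-cell score, 1.53; the part of T-cell content in its value was not tested. The difference was -0.22 ± 0.30 (SE; limma adjusted p = 0.870), with -0.09 on the adjacent probe, A_52_P183088, and 0.28, 0.23 and -0.86 within the slides. Without +/+ mouse 19, the highest tumour, it was -0.01, and without +/L mouse 20 it was -0.33. Activation of Notch1 by cleavage or by a truncated protein would not have to change this mRNA level.

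Gfi1 (A_51_P200262) read -1.54, -0.43, 0.35, -0.33 and 0.71 in +/L mice 20, 23, 517, 688 and 866. The +/+ values were -0.08, -0.98, 0.55, -1.21 and 0.33 in mice 11, 17, 19, 40 and 101. High and low tumours occur in both groups, and the difference was 0.03 ± 0.48 (SE; limma adjusted p = 0.991), or 0.35 without +/L mouse 20 and -0.21 without +/L mouse 866. Within the slides it was 0.16, 0.04 and 0.27.

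**Figure D2:**
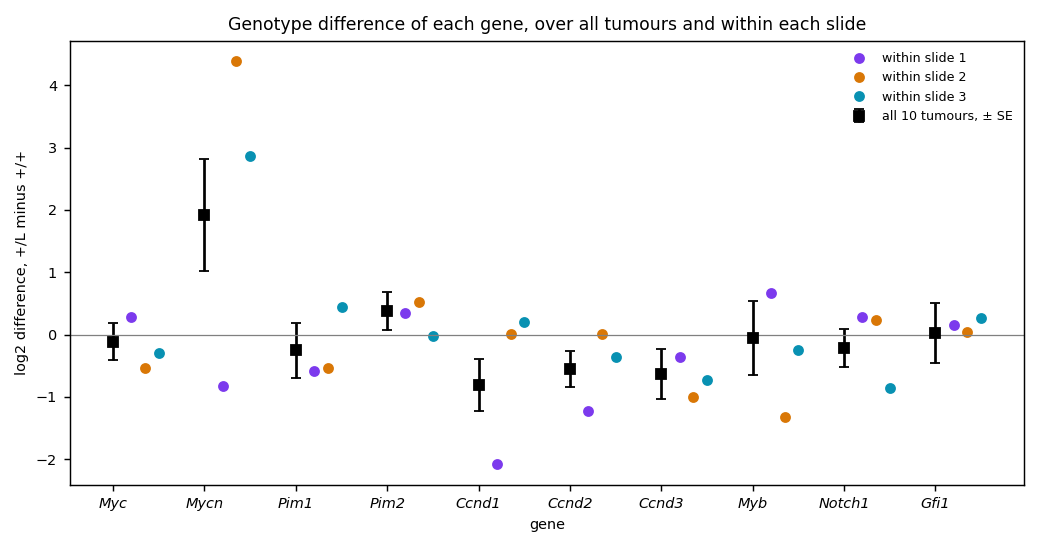
Log2 difference (+/L minus +/+, y axis) of each gene over all 10 tumours with its standard error (black squares and bars) and within each of 3 array slides (coloured points, no error). Mycn ranges from -0.83 to 4.39 and Ccnd1 from -2.08 to 0.20 over the slides, and Ccnd3 and Gfi1 alone keep their sign in all 3 slides; every Mycn value within a slide includes spots not well above background.

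High expression in a single tumour was sought with the same rule in all genes: the highest spot well above background, at least 1 log2 unit above the next tumour, and with a gap past Dixon's critical share of the whole range. By this rule 0 of 10 genes were high in 1 tumour, against a background of 5.78% (1028 genes). Of those 1028 genes, 880 were high in +/L mouse 20, and without that tumour 265 genes met the rule and again 0 of the 10. The mirrored rule found 1 of 10 genes low in 1 tumour, Ccnd1 in +/L mouse 20, against 1.37% (243 genes). Its gap to the next tumour was 1.51 (0.491 of the range), just past the criterion. The criterion was no longer met with normexp correction together with quantile normalization, in the authors' deposited table, with a gap of 2, or without any one of the other tumours except +/L mouse 688 or +/+ mouse 17. Dixon's critical share is higher with fewer tumours, so leaving 1 out can undo this call while gap and range stay the same. These losses therefore do not show that the call rests on the tumour left out. A gap of at least 1, but too small a share of the range, was found for Ccnd3 and Myb. Ccnd3 was low in +/L mouse 20 with a gap of 1.02 (0.426 of the range). Myb was high in +/+ mouse 11 with a gap of 1.15, and its share of 0.362 lay farther from the criterion. The upstream Mycn probe, which does not stand for the gene, was highest in +/L mouse 20, with a gap of 2.22 (0.424 of the range). That spot was well above background, but the probe was so on only 2 of 10 arrays, and most of its other values lie near background.

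The tumour of +/L mouse 20 had the lowest value for 5 of 10 genes, Myc, Ccnd1, Ccnd3, Myb and Gfi1, and the highest for 0. Over all genes tested it was lowest for 16.2% and highest for 25.2%. The tumour of +/+ mouse 11 was highest for 4 of the genes, Myc, Pim1, Ccnd3 and Myb, and had the highest mitosis-gene score, 1.06. The tumour of +/+ mouse 17 was highest for Ccnd1 and Ccnd2, and that of +/+ mouse 40 lowest for Pim1 and Pim2.

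**Figure D3:**
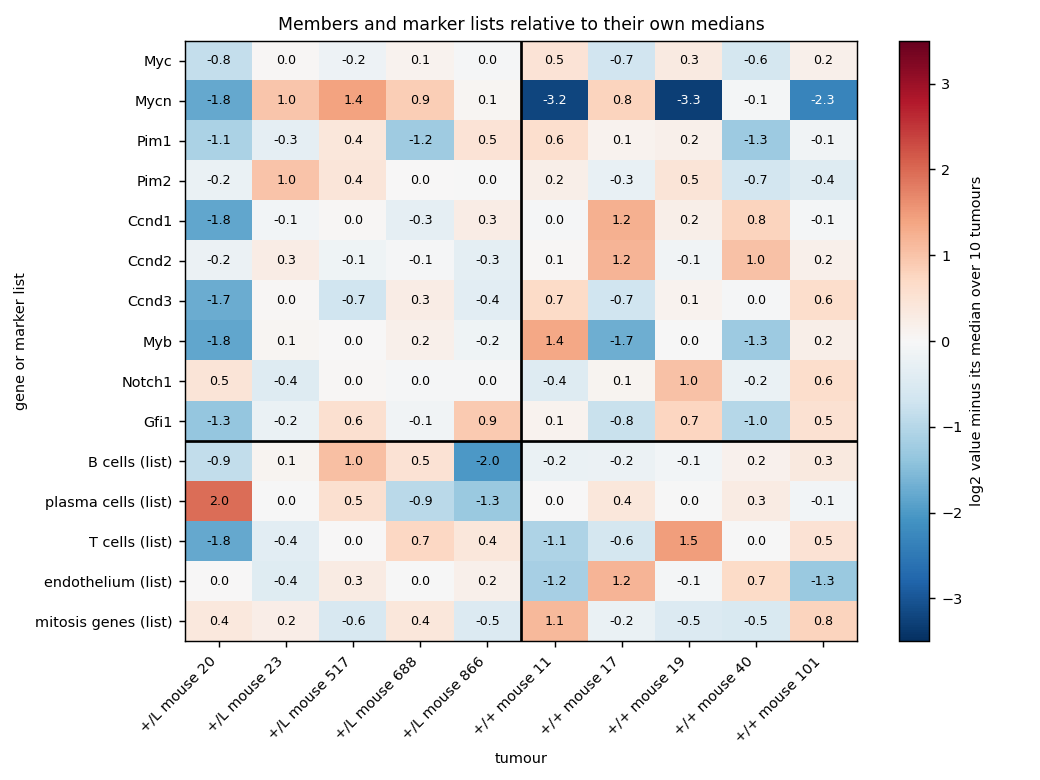
Log2 value of each gene, and of 5 marker-list scores, minus its own median over the tumours (colour and number), for 5 +/L and 5 +/+ tumours (columns). Mouse 20 is low for Myc, Mycn, Pim1, Ccnd1, Ccnd3, Myb and Gfi1 and high on plasma-cell markers; its Mycn spot and those of +/+ mice 11, 19 and 101 were not well above background.

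Probes at different positions of a gene went different ways in that tumour; this comparison was chosen after the values were seen. The upstream Myc probe A_52_P278549 read -0.59 in +/L mouse 20 and -2.45 to -1.18 in the other tumours, so the tumour lowest on the downstream probe was highest on this one. The upstream Myb probe A_52_P444839 read -2.48 there, also the highest of the 10, next to -2.53 in +/L mouse 23. The difference between the upstream and the downstream probe was centred on its own median over the 10 tumours. On that scale the upstream Myc probe stood 2.06 higher than the downstream one in mouse 20, and the upstream Myb probe 3.75 higher. For Mycn the shift was 4.97, the largest of these, but the downstream spot of mouse 20 and most upstream spots of the other tumours were not well above background. On the same scale the middle Myc probe stood only 0.15 higher than the downstream one, the upstream Ccnd2 probe 0.18 and the upstream Pim2 probe 0.08.
The Myc shift lay at the 98.2 percentile of 2114 transcript records with a pair of well-measured probes at least 500 bases apart, and the Myb shift at the 99.95 percentile, with an upstream probe that was not well measured in 2 tumours. Over these records the median shift was 0.37 in +/L mouse 20 and between -0.16 and 0.06 in the other tumours, so this array favoured upstream probes in general, by less than in Myc and Myb. Its part in the low downstream values of mouse 20 was not tested. The upstream probes gave genotype differences of -0.15 for Myc and 0.69 for Myb, with limma adjusted p-values of 0.940 and 0.825 in a fit with 1 row per probe.

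**Figure D4:**
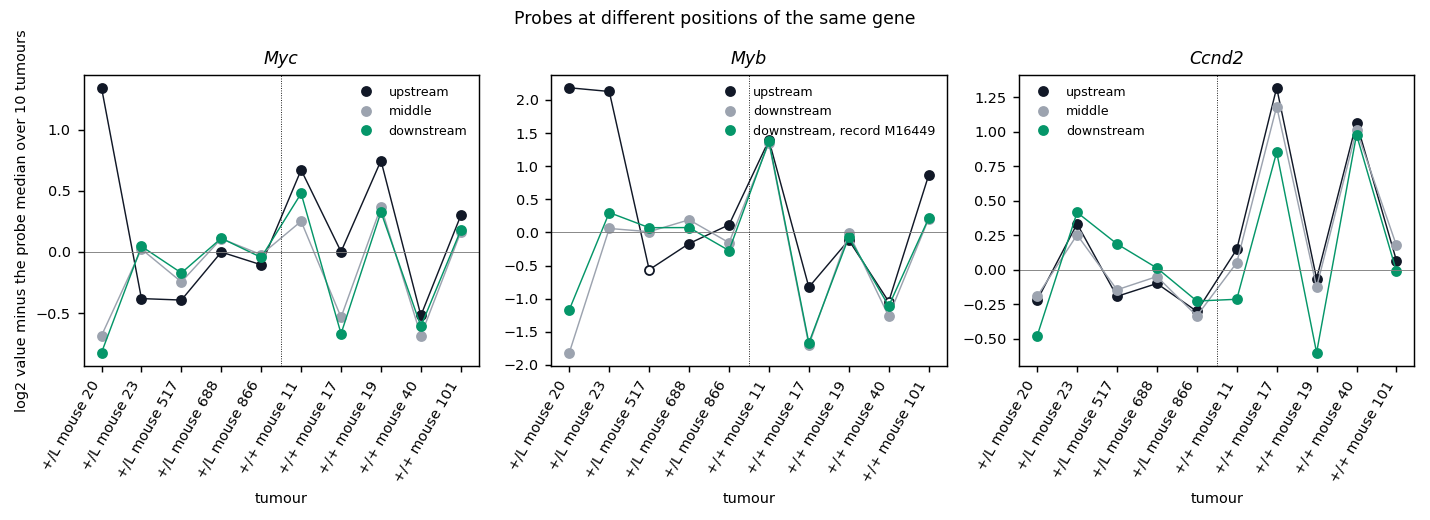
Log2 value minus the probe's median over 10 tumours (y axis) for probes at different positions of Myc, Myb and Ccnd2, by tumour (x axis; dotted line between +/L and +/+); open symbols are not well above background. In +/L mouse 20 the upstream probes of Myc and Myb lie at 1.34 and 2.18. The downstream probes A_51_P102096 (Myc) and A_51_P375543 (Myb) lie at -0.82 and -1.81 there. The Ccnd2 probes lie together in that tumour, and +/+ mice 17 and 40 are high on all 3 Ccnd2 probes.

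The level of each gene was set beside the B-cell, T-cell and mitosis scores of the tumours, in 30 relations over 10 tumours. After adjustment over the 30, none passed in the permutation test of Pearson's r (smallest adjusted p = 0.800) or of Spearman's rho (smallest adjusted p = 0.728). Gfi1 with the T-cell score had the highest r, 0.68 (permutation p = 0.030), with rho = 0.66 (permutation p = 0.044). Without +/L mouse 20 and +/+ mouse 19, the tumours farthest from the median T-cell score, r was 0.35 (permutation p = 0.391). For the proliferation genes, Ccnd3 and the mitosis score had r = 0.39 (permutation p = 0.267) and rho = 0.64 (permutation p = 0.055). Ccnd1 and the mitosis score had r = -0.43 (permutation p = 0.218) and rho = -0.60 (permutation p = 0.073). For both genes the adjusted p was 0.800 for r and 0.728 for rho. Without +/+ mice 11 and 101, r was -0.16 for Ccnd3 and -0.64 for Ccnd1.

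The genes that work with the 10 were described from lists, and in limma 0 genes of any of these lists had an adjusted p under 0.05. Of 12 MYC network partners, 5 read higher and 7 lower in +/L, with 0 at an unadjusted p under 0.05 and a median difference of -0.04. Max, the partner of MYC, differed by -0.38, and the antagonists Mxd1 and Mxi1 by 0.24 and 0.11. Of 24 MYC target genes 11 read higher and 13 lower, again with 0 at an unadjusted p under 0.05 and a median of -0.06. Nucleolin (Ncl) differed by 0.69, ornithine decarboxylase (Odc1) by -0.08 and nucleophosmin (Npm1) by 0.17. The MYC target scores of the +/+ tumours ran from -0.48 in mouse 17 to 0.64 in mouse 11, the tumours that were low and high for Myc, and those of the +/L tumours from -0.29 to 0.53. Myc read 1.35 and 2.14 in +/+ mice 40 and 101, with scores of -0.39 and 0.51. In +/L mice 23, 517, 688 and 866 the scores were 0.15, -0.29, 0.53 and -0.25, beside Myc at 2.01, 1.79, 2.07 and 1.92. Not every tumour followed Myc. The score was -0.24 in +/+ mouse 19, next highest for Myc, and -0.17 in +/L mouse 20, lowest for Myc. The relation of the score to Myc was not tested.

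Of 16 cyclin D partners and G1 genes, 9 read higher and 7 lower in +/L (median 0.08). The kinases Cdk4 and Cdk6 differed by -0.12 and -0.14 and their substrate Rb1 by -0.43. An unadjusted p under 0.05 was reached by 2 of 16, both named after their values were seen: Cdkn2a, which encodes the inhibitor p16INK4a and ARF, at -1.68, and Cdkn1b, which encodes p27, at 0.68 (limma adjusted p = 0.56 and 0.58). Cdkn2a, not well measured in 1 of the +/L tumours, was lowest in +/L mouse 20, where it read -5.41, against -3.05 to -1.63 in the other +/L and -1.68 to -0.12 in the +/+ tumours, and without that tumour its difference was -1.02. Of 12 genes related to PIM kinases and STAT5, 5 read higher and 7 lower (median -0.20), with 0 at an unadjusted p under 0.05. Pim3, the remaining PIM kinase, differed by 0.71 (limma adjusted p = 0.59) and read 3.03 in +/L mouse 20, against a median of 1.12 over the 10 tumours; without that tumour its difference was 0.37. The STAT5 target genes Socs2 and Cish differed by 0.86 and 0.56, both highest in +/L mouse 866, and without that tumour by 0.60 and 0.15.

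Of the Notch list, 16 of 17 genes could be tested, with 2 higher and 14 lower in +/L, 0 at an unadjusted p under 0.05 and a median of -0.25. The Notch targets Hes1, Dtx1 and Nrarp differed by -0.15, -0.28 and -0.26. Of 9 MYB and GFI1 relatives and cofactors, 3 read higher and 6 lower (median -0.30). Mybl1, Mybl2 and Gfi1b, the relatives in the list, differed by 0.72, -0.62 and -0.79, and the coactivator gene Crebbp, named after its value was seen, was the single one with an unadjusted p under 0.05, at -0.58 (limma adjusted p = 0.56). Of 16 other genes tagged by retroviral insertions in mouse lymphoma, 7 read higher and 9 lower (median -0.14), with 0 at an unadjusted p under 0.05; Bmi1 differed by 0.16, Sox4 by -0.09 and Ahi1, the neighbour of Myb in the genome, by -0.22. Of 12 mitosis genes 4 read higher and 8 lower (median -0.15). Mki67, Top2a and Ccnb1 differed by -0.15, 0.01 and -0.15, and Bub1, named after its value was seen, by -1.01 (limma adjusted p = 0.56) as the single one with an unadjusted p under 0.05. Against 8.58% of all genes, the lists held between 0 and 2 genes each at that unadjusted threshold.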

How the data were processed

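Each of 10 arrays is 1 scanner file with 45018 spots. Per the file headers, the intensity of each spot comes from Agilent Feature Extraction 10.5.1.1, run by the authors, with background subtraction and detrending behind the processed signal; the flags for well above background and outliers also come from the deposited files. A value table by the authors gives deposited log2 levels of these arrays; how it was normalized is not given in the labels. Probe coordinates and sequences are those of the deposited files (mm9); their place in exons or UTRs was not analysed here. Symbols were brought up to date through a RefSeq gene table (GRCm38.p6), with 25089 probes matched by accession.

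Control and outlier spots were left out, log2 processed signals were centred on each array's 75th percentile, and spots of a probe were averaged. Genes needed a probe well above background on 3 of 10 arrays, and the brightest such probe stood for the gene. Genotypes were compared with limma 3.58.1 (R 4.3.3) over all 17775 genes with Benjamini-Hochberg adjustment, and per gene with an exact permutation test over 252 splits, whose smallest two-sided p is 0.00794. Replicates carry separate mouse numbers and were taken as separate animals. The number of arrays limits the precision. Slides 1, 2 and 3 of the headers held 2, 2 and 1 +/L arrays and 2, 1 and 2 +/+ arrays, and the labels give another slide for mice 866 and 17. The fit was tested in 5 runs on simulated data in which genes varied independently, and 6.11% of the genes called were false calls.

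The 10 genes and all lists were chosen with earlier results of these data known. All 10 genes are named. From each pathway list the first 3 genes measured, in the order written, are named, with any other gene past adjusted p 0.05. Marker lists were B cells, plasma cells, T cells, macrophages and neutrophils, fibroblasts and smooth muscle, endothelium, epithelium and mesothelium, adipocytes and immature lymphoid cells. Alternatives changed the background correction, scaling, filter, probe rule, slide block, covariates (age, labelled sex) and the set of arrays.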

Additional observations from a re-analysis of the deposited data

Results flagged for a closer look

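In 44 groups of 5 values (22 probes in each genotype), the gap between an extreme tumour and its nearest neighbour was set against the range of its group. Chance flags about 1 group in 20, and 3 of the 44 were flagged here, which is close to that share. All 3 came from +/L mouse 20. Several probes read the same gene, so the groups are not independent, and no share over all genes is given for this rule. Ccnd1 (A_51_P262766) read 0.36 in that tumour and 1.86 to 2.45 in the other +/L tumours. Myb (A_51_P375543) read -1.21 there and 0.45 to 0.79 in the others. The upstream Myc probe (A_52_P278549) stood out in the opposite direction, with -0.59 against -2.32 to -1.93. The epithelial marker score of 4.66 and the T-cell marker score of -1.71 in the same tumour were given above, and their part in these values was not tested.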

How the results depend on the processing

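In limma, 0 of the 10 genes had an adjusted p under 0.05 under any alternative run. Over all genes the count of 0 became 1 with normexp and quantile normalization and 1 in the authors' deposited table, and ranged from 0 to 3 when single tumours were left out (3 without +/L mouse 517). The count of 1 for genes low in a single tumour became 0 with normexp and quantile normalization, in the authors' table, with a gap of 2, without the arrays that go against the labelled sex and in female-labelled mice, and ranged from 0 to 1 when single tumours were left out. The settings by sex leave out +/L mouse 20 itself, and the critical share is higher with fewer tumours. Signs turned for several genes with small differences and for Ccnd3, which differed by -0.64 over all 10 tumours. The cause was not tested. Myc turned to 0.03 in the authors' table, 0.30 in female-labelled mice and 0.18 without the arrays that go against the labelled sex. Pim1 turned to 0.09 with the slide of the labels as a block, 0.15 in female-labelled mice and 0.10 without those arrays, and Ccnd3 to 0.01 in female-labelled mice. Myb turned to 0.12 as the mean of its probes, 0.46 with age and 0.01 with labelled sex as a covariate, 1.02 in female-labelled mice and 0.72 without those arrays. Notch1 turned to 0.31 with the slide of the labels as a block, and Gfi1 to -0.03 with quantile normalization, -0.40 with age and -0.02 with labelled sex. With single tumours left out, Myc ranged from -0.27 to 0.04, Pim1 from -0.55 to -0.03, Ccnd3 from -0.84 to -0.33, Notch1 from -0.38 to -0.01, Myb from -0.41 to 0.35 and Gfi1 from -0.21 to 0.35. Mycn, Pim2, Ccnd1 and Ccnd2 kept their sign in all of these alternatives (values within slides aside), with ranges of 0.19 to 2.52, 0.19 to 0.59, -1.61 to -0.45 and -0.76 to -0.25. Signal near background limits Mycn and the upstream Myb probe. No paired analysis was possible because the replicate numbers are mouse numbers, which the groups do not share.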

Other observations

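Within the +/+ group, the tumours of mice 17 and 40 moved together over several of these genes; they were picked after their values were seen, and the pattern was not tested. By the file headers they are also the 2 +/+ arrays of slide 1, while the labels put mice 17 and 40 on different slides. The +/L arrays of that header slide are those of mice 20 and 688, whose values are given below. The part of the slide in the pattern was not tested. Relative to each probe's median over the 10 tumours, Ccnd1 stood at 1.24 and 0.78 and Ccnd2 at 1.18 and 1.01 in mice 17 and 40. In the same tumours Myc stood at -0.67 and -0.61, Myb at -1.70 and -1.27 and Gfi1 at -0.78 and -1.01. Mice 17 and 40 parted on Pim1 (0.12 and -1.27), Notch1 (0.10 and -0.24) and Mycn (0.78 and -0.07). Their Ccnd3 stood at -0.69 and -0.05 and their Pim2 at -0.27 and -0.65. The tumours of +/+ mice 11 and 101 lay on the other side for Myc (0.48 and 0.18), Myb (1.35 and 0.20), Ccnd3 (0.68 and 0.63) and Gfi1 (0.13 and 0.53), with Ccnd1 at -0.04 and -0.06 and Ccnd2 at 0.05 and 0.18. Their MYC target scores were 0.64 and 0.51 and their endothelial scores -1.12 and -1.24, where mice 17 and 40 had -0.48 and -0.39 on MYC targets and 1.26 and 0.74 on endothelial markers. Macrophage and neutrophil scores were 0.60 and 1.34 in mice 17 and 40 and -1.17 and -0.92 in mice 11 and 101, and fibroblast and smooth muscle scores were 0.44 and 0.57 against -0.83 and -0.37. In +/L mouse 20 the same cyclins did not go together: Ccnd1 stood at -1.83 and Ccnd3 at -1.72, and Ccnd2 at -0.19. Myc, Myb and Gfi1 stood at -0.82, -1.81 and -1.34 there. In +/L mouse 688 Ccnd1 stood at -0.32, Ccnd2 at -0.05, Ccnd3 at 0.25, Myc at 0.11, Myb at 0.19 and Gfi1 at -0.13.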
